A study of Homo sapiens with 2 samples.

Results

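The gene DEPDC1B and 6 genes that lie near it on the long arm of chromosome 5 are described here across the 2 libraries of a knockdown of DEPDC1B: ELOVL7, ERCC8, NDUFAF2, SMIM15, ZSWIM6 and PDE4D. The 7 genes were taken by name and place from a table of 39720 gene symbols, and all 7 are in it. RNA came from A549, a human lung adenocarcinoma cell line. Lentivirus delivered a control hairpin RNA to the cells of 1 library (shNC) and a hairpin against DEPDC1B to those of the other (shDEPDC1B), both with polybrene at 5 μg/mL and both collected on day 2. The control is therefore infected too. The sources used here do not give the hairpin's sequence, the number of hairpins or any selection of infected cells.

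There is 1 library per group, so no difference has a replicate check, no test was possible, and what is compared is 2 libraries. The libraries held 18647290 (shNC) and 18862371 (shDEPDC1B) estimated counts. Values are counts, or CPM, the usual unit of counts scaled for depth, here with TMM factors from a trimmed mean over all genes, and a log2 ratio is always shDEPDC1B over shNC. Square brackets hold exact 95% intervals that cover counting error only. Genes whose larger count reached 30 were assessed, 13850 in all and the 7 genes of the locus among them, and a gene was counted as higher or lower where it differed at least 1.5-fold with an interval that leaves out equality. In the check of the cell line, the epithelial keratins KRT8 and KRT18 had between 97608 and 106007 counts, while CDKN2B was at 0 and CDKN2A had 2 and 3 counts, a pair of genes that A549 is known to have lost. Of the marker lists 5 of 5 epithelial genes were assessed, 1 of 5 leukocyte genes (CD68, 690 and 495 counts), 2 of 6 fibroblast genes (COL1A1, 99 and 105, and COL3A1, 80 and 105), none of 4 endothelial genes and 1 of 4 alveolar type 2 genes (ABCA3, 1750 and 1049, counted as lower). At 0 in both libraries were CD3E among leukocyte, DCN among fibroblast, KDR among endothelial and SFTPA1 among alveolar type 2 genes.

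DEPDC1B encodes a protein with a DEP domain and a domain related to those of GTPase-activating proteins. Its RNA is known to accumulate in dividing cells toward mitosis. The neighbouring genes have no known shared function with it: ELOVL7 elongates long-chain fatty acids in the endoplasmic reticulum, ERCC8 (CSA) carries the ubiquitin ligase that acts when RNA polymerase stalls at DNA damage, NDUFAF2 is a chaperone for mitochondrial complex I, SMIM15 is a small membrane protein, ZSWIM6 is a zinc finger protein with roles in the developing brain, and PDE4D breaks down the second messenger cyclic AMP.

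The order along the chromosome, in GRCh38 coordinates of GENCODE 29, places PDE4D first and ZSWIM6 last. PDE4D (ENSG00000113448) spans chromosome 5 from 58969038 to 60522120 on the minus strand, a body of 1553 kb. DEPDC1B (ENSG00000035499) lies 74.8 kb beyond it, from 60596912 to 60700190, also on the minus strand. ELOVL7 (ENSG00000164181; 60751791 to 60844389, minus strand) follows after a gap of 51.6 kb, so that it is read toward DEPDC1B. ERCC8 (ENSG00000049167; 60873831 to 60945073, minus strand) and NDUFAF2 (ENSG00000164182; 60945129 to 61153037, plus strand) stand head to head. SMIM15 (ENSG00000188725; 61157709 to 61162474, minus strand) and ZSWIM6 (ENSG00000130449; 61332273 to 61546170, plus strand) complete the group.

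The start regions of the genes on which the results turn are shown first. Those of DEPDC1B and its paralog DEPDC1 run from 170 bases before to 30 bases after the RefSeq start (GRCh38.p14; chr5:60700137-60700336 and chr1:68497053-68497252, both minus strand, 5′ to 3′), with the letters of a CCAAT box (CCAAT) and of a CHR element (TTTGAA, found here as its reverse complement TTCAAA) in capitals. The CHR element is known from promoters of genes expressed late in the cell cycle. The 2 are shown together because the paralogs carry both motifs near the start:
DEPDC1B: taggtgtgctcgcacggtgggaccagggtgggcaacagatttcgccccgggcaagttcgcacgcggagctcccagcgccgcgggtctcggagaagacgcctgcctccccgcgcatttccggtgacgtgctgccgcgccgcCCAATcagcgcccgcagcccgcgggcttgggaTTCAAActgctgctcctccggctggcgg
DEPDC1: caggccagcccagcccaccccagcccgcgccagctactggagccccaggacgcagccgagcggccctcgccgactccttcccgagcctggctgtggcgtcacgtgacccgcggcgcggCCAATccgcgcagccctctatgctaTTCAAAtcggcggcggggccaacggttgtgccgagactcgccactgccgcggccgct

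In DEPDC1B the CCAAT box begins 30 bases before the start and the TTCAAA at base 3 after it, a spacing of 32 bases between their first bases, and in DEPDC1 the spacing is 25. Over windows of 300 bases (250 before and 50 after a start) and both strands, 15.2% of 35116 RefSeq promoters hold TTTGAA, 34.6% hold CCAAT and 5.9% hold both. ELOVL7, the neighbour with the largest difference, has neither motif in its window of the same kind (chr5:60844240-60844439, minus strand), which has 29 CpG dinucleotides in 200 bases:
ELOVL7: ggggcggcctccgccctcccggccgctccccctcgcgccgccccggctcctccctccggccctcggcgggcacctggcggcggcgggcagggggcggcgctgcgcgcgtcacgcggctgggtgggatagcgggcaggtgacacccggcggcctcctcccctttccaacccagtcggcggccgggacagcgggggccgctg

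The stretch between ERCC8 and NDUFAF2 is shown because the starts of both genes fall in it. Their RefSeq starts are 135 bases apart (56 in GENCODE 29), and it is given on the plus strand with 30 bases of each gene (chr5:60945041-60945234), the CCAAT letters in either direction in capitals:
ERCC8 and NDUFAF2: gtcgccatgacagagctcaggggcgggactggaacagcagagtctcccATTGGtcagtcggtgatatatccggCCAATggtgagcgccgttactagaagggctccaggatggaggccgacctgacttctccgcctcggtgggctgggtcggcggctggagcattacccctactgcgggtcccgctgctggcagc

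One CCAAT faces NDUFAF2 and the other, read here as ATTGG, faces ERCC8. All 7 genes had RefSeq promoter windows, 8 of them for PDE4D, whose transcripts start at many places, and 1 for each of the others. The PDE4D window at chr5:59586455-59586754 also holds both motifs, TTCAAA at -73 and ATTGG at -32 from its start. The pair of motifs is therefore not particular to DEPDC1B at this locus. A match of letters is a description of the sequence and not of a bound factor.

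DEPDC1B, the targeted gene, was counted 329 times in shNC and 39 times in shDEPDC1B, which is 17.1 CPM [15.3, 19.0] and 2.14 CPM [1.52, 2.92]. The library labelled for the hairpin was the lower one, at 12.5% of the other. The log2 ratio was -3.00 [-3.515, -2.515], rank 46 from the lowest of the 13850 assessed genes. In bulk RNA a lower level in every cell and a loss from part of the cells cannot be told apart.

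ELOVL7, the nearest gene on its far side, was the second gene of the locus with a large difference. Its counts were 920 in shNC and 195 in shDEPDC1B, which is 47.7 CPM [44.7, 50.9] and 10.7 CPM [9.24, 12.3]. That is 4.46-fold lower [3.82, 5.24], a log2 ratio of -2.16 [-2.39, -1.93], rank 127 from the lowest of all assessed genes. The intervals of the levels in the 2 libraries do not meet. Of all assessed genes 1.15% (159) were at least 4-fold lower, and DEPDC1B and ELOVL7 were both among them.

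The 2 genes did not differ by the same factor. For each ELOVL7 count there were 0.358 DEPDC1B counts in shNC and 0.200 in shDEPDC1B, a ratio between genes within a library that needs no scaling of the libraries. It was lower in shDEPDC1B by a factor of 0.559 [0.377, 0.813]. DEPDC1B was thus lower than ELOVL7 by more than counting error.

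Farther out, ERCC8 was counted 468 times in shNC and 292 times in shDEPDC1B, which is 24.3 CPM [22.1, 26.6] and 16.01 CPM [14.2, 18.0]. Its log2 ratio was -0.60 [-0.82, -0.39], or 1.52-fold lower, just past the 1.5-fold line. NDUFAF2, which begins beside it and is read the other way, had the same 468 counts in shNC and 528 in shDEPDC1B. Its log2 ratio of 0.25 [0.07, 0.44] stayed under 1.5-fold. The share of the pair that was ERCC8 was therefore not the same in the libraries: 1 ERCC8 count per NDUFAF2 count in shNC and 0.553 in shDEPDC1B, a factor of 0.553 [0.454, 0.673].

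ERCC8 and NDUFAF2 differ in length, with 2017 and 719 nucleotides in their longest coding transcripts. After a fit of the log2 ratio on transcript length and GC content was subtracted, ERCC8 stood at -0.60 and NDUFAF2 at -0.32, so the sign of NDUFAF2 turned and the gap between them narrowed from 0.85 to 0.28. In a comparison chosen after the values were seen, among 521 pairs of assessed coding genes that start head to head within 1000 bases in GENCODE 29, the median gap was 0.47, and 24.8% of the pairs had a gap at least as wide as this pair before the fit and 65.6% after it. In 20.5% of the pairs 1 gene was counted as lower and the other was not.

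The remaining 3 genes were within 1.5-fold. SMIM15 had 1689 counts in shNC and 1498 in shDEPDC1B, a log2 ratio of -0.09 [-0.195, 0.008], and ZSWIM6 had 632 and 660, a log2 ratio of 0.14 [-0.02, 0.30]. For both the interval holds equality, which bounds the difference and does not show that the levels were the same. PDE4D, the gene with the most counts at the locus, had 5816 and 4546, a log2 ratio of -0.28 [-0.33, -0.22], or 1.21-fold lower. Its 29 annotated transcripts, 8232 nucleotides at the longest coding one, were counted as 1 gene, so a switch among starts would not show. With length and GC subtracted PDE4D turned to 0.285 and SMIM15 to 0.112, while ZSWIM6 went to 0.4, so the direction of the first 2 rests on the correction. PART1, with 12 and 7 counts, overlaps the body of PDE4D in part on the opposite strand. Because strand keeping is not stated, reads from any transcript sequence the 2 genes share may not be told apart. Whether they share such sequence was not examined.

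**Figure D1:**
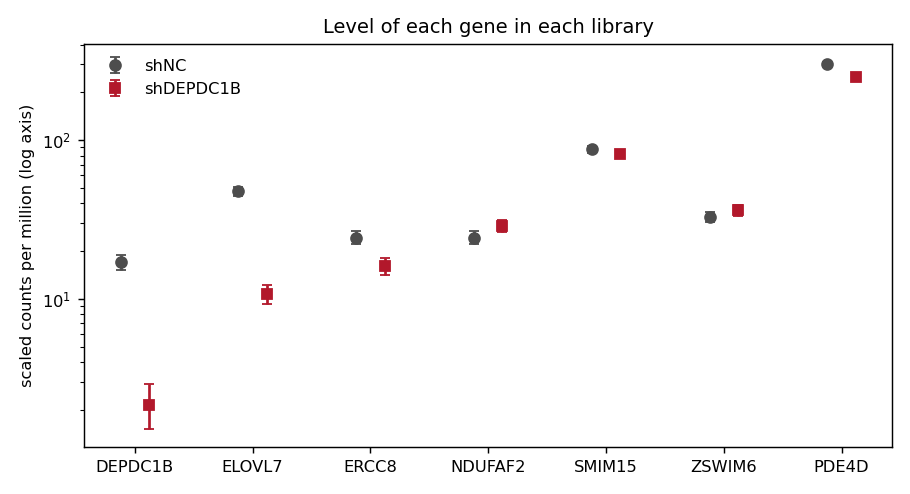
Scaled CPM (log axis) of each gene in the shNC library (grey circles) and the shDEPDC1B library (red squares), with exact 95% intervals of counting error and 1 library per group. DEPDC1B (17.1 and 2.14) and ELOVL7 (47.7 and 10.7) are far apart between libraries, ERCC8 less so, and the other 4 nearly level.

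Counted over the locus, 3 of the 7 genes were lower (DEPDC1B, ELOVL7 and ERCC8) and none was higher, where 19.6% of all assessed genes were lower and 19.2% higher by the same rule. Their median log2 ratio was -0.28, beside 0.04 over all assessed genes. One of the 3 is the target of the hairpin itself, and at a threshold of 2-fold ERCC8 was no longer counted. From the lowest log2 ratio to the highest the order was DEPDC1B, ELOVL7, ERCC8, PDE4D, SMIM15, ZSWIM6 and NDUFAF2. With length and GC subtracted NDUFAF2 came after ERCC8, followed by SMIM15, PDE4D and ZSWIM6, and the first 3 places were as before. Genes can also be compared by their ratio within each library. SMIM15 per ZSWIM6 count was lower in shDEPDC1B by a factor of 0.849 [0.745, 0.969], and SMIM15 per PDE4D count was higher by 1.13 [1.05, 1.23]. NDUFAF2 per ZSWIM6 count had a factor of 1.08 [0.912, 1.28], an interval that holds 1, so without a length correction these 2 genes cannot be put in order beyond counting error. None of these ratios between genes is corrected for length. With length and GC subtracted NDUFAF2 was at -0.317 and ZSWIM6 at 0.4, and SMIM15 at 0.112 was below PDE4D at 0.285.

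**Figure D2:**
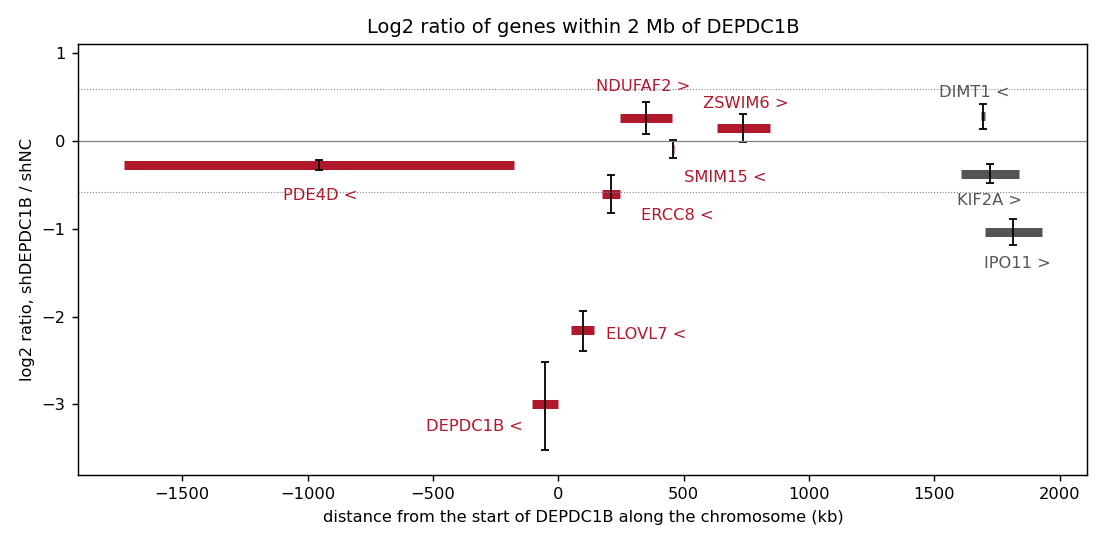
Log2 ratio (y axis) of the 10 assessed genes within 2 Mb of DEPDC1B against distance along the chromosome from the start of DEPDC1B in kb (x axis). Bars span gene bodies (red for the 7 genes described, grey for 3 others), black lines are exact 95% intervals of counting error, arrowheads give the direction of reading and dotted lines mark 1.5-fold. DEPDC1B at -3.00 and ELOVL7 at -2.16 stand below all others, and SMIM15 and DIMT1 are narrower than their interval marks.

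Within 2 Mb of the body of DEPDC1B, 18 annotated genes are in the table and 10 were assessed, the 7 genes and 3 more at the far end. IPO11, which encodes a nuclear import receptor, had 1174 counts in shNC and 542 in shDEPDC1B, a log2 ratio of -1.035 [-1.185, -0.887]. KIF2A, a microtubule-depolymerising kinesin, was at -0.37 [-0.48, -0.27], and DIMT1, a ribosomal RNA methyltransferase, at 0.28 [0.14, 0.42]. DIMT1 and IPO11 also begin head to head, 33 bases apart, with a gap of 1.31 between their log2 ratios, which 8.45% of the head-to-head pairs reached. DIMT1 and the start of IPO11 lie inside the annotated span of KIF2A. Their counts would be uncertain where transcripts overlap and strand was not kept, and overlap of transcripts was not examined. The genes between ZSWIM6 and these 3 were too low to assess, C5orf64 with 11 and 3 counts among them.

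Over a wider stretch of 5 Mb on each side, 10 of 28 assessed genes were lower and none higher, with a median of -0.385, and without the 7 genes these were 7 of 21 and a median of -0.39. Chromosome 5 as a whole had a median of -0.105 (588 genes, 26.0% lower and 14.1% higher), the rank of 4 from the lowest among 22 autosomes, whose medians ran from -0.30 (chromosome 18) to 0.38 (chromosome 19). With the length and GC fit subtracted the chromosome stood at -0.002, and the 5 Mb stretch had 8 lower and 1 higher gene with a median of -0.12, where 13.9% of all 13020 genes in the fit were lower and 12.3% higher. Without the 7 genes the stretch then had 5 lower and 1 higher of 21 and a median of -0.02. DEPDC1B at -2.92 and ELOVL7 at -1.81 remained the lowest of the 7 genes after this fit, though ELOVL7 was then less than 4-fold lower.

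**Figure D3:**
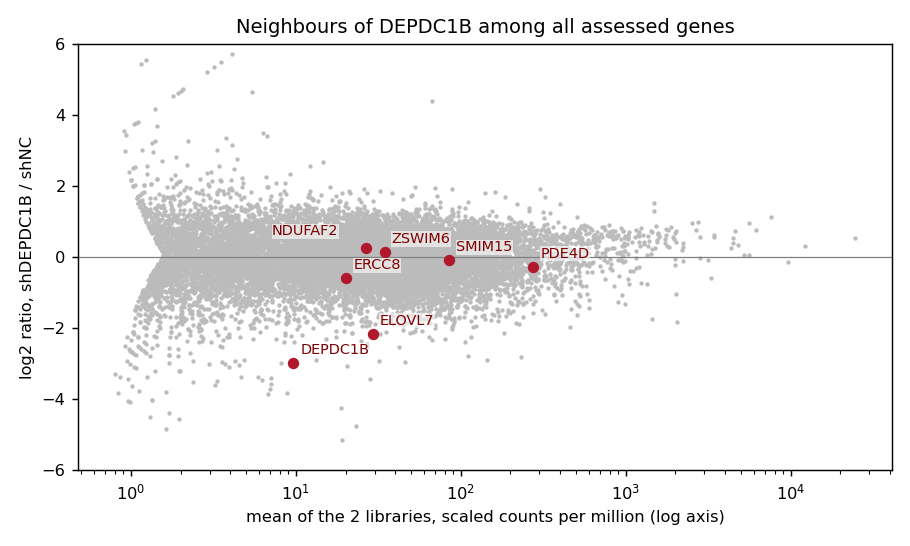
Log2 ratio (y axis) against the mean of the libraries in scaled CPM (log x axis) for 13850 assessed genes (grey), with the 7 genes in red; 10 genes lie beyond the y axis limits of 6. DEPDC1B and ELOVL7 lie at the lower edge of genes of like abundance, and the other 5 lie inside the cloud.

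Transcript length went with the log2 ratio across genes in these libraries, which bears on how the locus is read. Coding genes were put in order of length and cut into 10 groups of 1230. In the shortest group the median log2 ratio was 0.58 and 3.66% were lower, and in the longest group it was -0.63 and 52.3% were lower. NDUFAF2 is in the shortest group and was below its median, whereas PDE4D is in the longest and was above it. DEPDC1B and SMIM15 share the group of 2437 to 2919 nucleotides, where the median was 0.20 and 8.05% of genes were lower. ELOVL7, with 4165 nucleotides, is in a group with a median of -0.16 and 19.5% lower. ZSWIM6, with 5501 nucleotides, was at 0.14 in a group with a median of -0.26. What part length has in the values of the 7 genes was not tested beyond the fits.

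**Figure D4:**
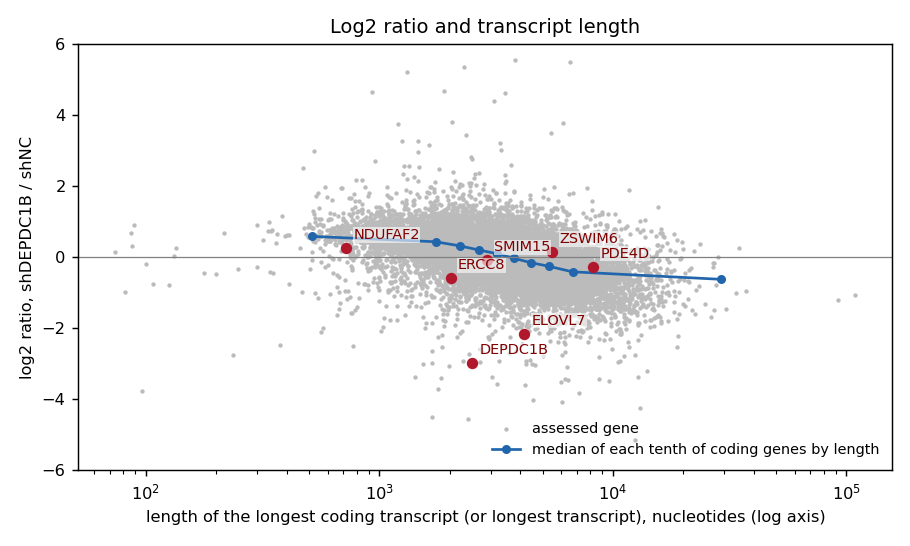
Log2 ratio (y axis) against the length of the longest coding transcript, or longest transcript where none codes, in nucleotides (log x axis) for 13020 assessed genes with a known length (grey), the 7 genes (red) and the median of each of 10 groups of coding genes by length (blue, placed at the middle of its range on the log axis). The blue medians go from 0.58 in the shortest group to -0.63 in the longest, DEPDC1B and ELOVL7 lie far below them, and 4 genes lie beyond the y axis limits.

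Levels per length give the order of abundance within a library. In shNC, PDE4D was at 36.6 CPM per kb [35.7, 37.6], NDUFAF2 at 33.8 [30.8, 37.0] and SMIM15 at 30.3 [28.9, 31.8], where the intervals of neighbours in this order meet. ERCC8 at 12.03 [10.97, 13.2] and ELOVL7 at 11.5 [10.7, 12.2] also overlapped, as did DEPDC1B at 6.83 [6.11, 7.61] and ZSWIM6 at 5.96 [5.503, 6.44]. DEPDC1B was thus among the lower genes of the locus in the control library too. In shDEPDC1B, NDUFAF2 came first at 40.3 [36.9, 43.8], then PDE4D at 30.3 [29.4, 31.2], SMIM15 at 28.4 [27.0, 29.9] and ERCC8 at 7.94 [7.05, 8.90]. ZSWIM6 at 6.58 [6.08, 7.10], ELOVL7 at 2.57 [2.22, 2.95] and DEPDC1B at 0.855 [0.608, 1.17] followed. There the intervals of PDE4D and SMIM15 meet, as do those of ERCC8 and ZSWIM6, and those of the other neighbours in the order do not. The order rests on the length taken: with the median length of coding transcripts PDE4D would stand at 119 CPM per kb in shNC, SMIM15 at 50.4 and NDUFAF2 at 41.4, and ERCC8 at 18.0 would be apart from ELOVL7 at 12.5.

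The neighbours of DEPDC1B were then set beside their families or pathways, in lists without the 7 genes themselves. For scale, 19.6% of all assessed genes were lower and 19.2% higher. With the length and GC fit subtracted these shares were 13.9% and 12.3%. For DEPDC1B itself only its paralog is given. DEPDC1, whose start carries the same 2 motifs, had 410 counts in shNC and 382 in shDEPDC1B, a log2 ratio of -0.02 [-0.23, 0.18]. Its interval holds equality and does not meet that of DEPDC1B.

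ELOVL7 is 1 of 7 elongases, the enzymes of the first and slowest step of fatty acid elongation. Of 12 other genes of the elongation cycle 3 were lower and 4 higher, with a median of -0.10. Among elongases the 3 lower ones were ELOVL5, which elongates polyunsaturated chains, at -0.90 [-0.99, -0.82], ELOVL2 at -0.64 and ELOVL4 at -0.81, and ELOVL1 at 0.71 and ELOVL3 at 0.95 were higher. ELOVL3, with 23 and 42 counts, reached the count filter only through the library where it was higher. TECR, the reductase that ends the cycle, was at 1.004 [0.88, 1.13], and the dehydratase HACD1 at 0.96 [0.78, 1.14]. ELOVL7 at -2.16 lay outside the range of the others, and its interval does not meet that of any other elongase. With the length and GC fit subtracted the median of the 12 turned to 0.11, with 2 genes lower and 1 higher.

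ERCC8 belongs to nucleotide excision repair, which removes bulky lesions from DNA. Of 26 other genes of this pathway 7 were lower and 4 higher (median 0.01, but -0.05 with DESeq2 size factors, -0.09 with library totals and -0.01 with upper-quartile factors). ELOF1, an elongation factor at stalled RNA polymerase, was counted 556 times in shNC and 111 times in shDEPDC1B. Its log2 ratio of -2.245 [-2.55, -1.95] went to -2.64 with length and GC subtracted. RAD23B, a partner of the damage sensor XPC, was at -0.80 [-0.87, -0.73], CUL4A, a scaffold of the ligase that ERCC8 joins, at -0.71 [-0.81, -0.61], and XAB2 at 0.92 [0.77, 1.065]. In this list ERCC8 itself was not among the 4 farthest genes. After the fit 1 gene was lower and 1 higher.

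NDUFAF2 acts in building the part of complex I that takes electrons from NADH, the N-module. Of 18 other assembly factors 7 were higher and none lower (median 0.47), and of 8 N-module subunits 4 were higher and none lower (median 0.63). ECSIT was at 1.11 [0.92, 1.30], NDUFAF3 at 0.965 [0.826, 1.104], DMAC1 at 0.935 and NDUFAF8 at 0.64. Among subunits NDUFV1 was at 0.905, NDUFS4 at 0.78, NDUFV2 at 0.73 and NDUFA2 at 0.72. NDUFAF2 at 0.25 lay below both medians. With length and GC subtracted 2 assembly factors and 2 subunits were higher and none lower, with medians of 0.255 and 0.30. ECSIT was then at 0.581, NDUFAF3 at 0.465, DMAC1 at 1.028 and NDUFAF8 at -0.285, a turn of sign. The named subunits were then at 0.591 (NDUFV1), 0.240 (NDUFS4), 0.364 (NDUFV2) and 0.062 (NDUFA2). With the loess on length, where 14.4% of all genes were higher and 13.6% lower, 3 assembly factors were higher and 2 lower (median 0.12) and 2 subunits higher (median 0.19), and with library totals 5 assembly factors were higher and 1 lower.

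PDE4D is 1 of the cyclic AMP phosphodiesterases. Of 13 others that were assessed 3 were lower and 1 higher, with a median of -0.325, and 5 were lower with DESeq2 size factors or library totals. PDE10A was at -1.37 [-1.56, -1.18], PDE8B at -1.615 [-2.08, -1.17] and PDE11A at -0.99. The 1 higher gene was PDE2A, with 14 and 30 counts, which reached the count filter only through the library where it was higher, and none was higher at 100 counts or more. PDE4D had the most counts of this list in both libraries, and its own log2 ratio of -0.28 was beside the list's median. With length and GC subtracted they stood apart, PDE4D at 0.285 and the median at -0.17 with 2 genes lower and 2 higher. Of 15 assessed genes that make or sense cyclic AMP, 4 were lower and 1 higher (median -0.35). The lower ones were the cyclases ADCY1 at -1.27 and ADCY7 at -0.86, and the protein kinase A subunits PRKAR2B at -1.545 and PRKAR2A at -0.685. With length and GC subtracted 3 of the 15 were lower and 1 higher, with a median of -0.013. Under the loess 1 of the 15 was lower and the median was 0.01, and with DESeq2 size factors or library totals none was higher.

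ZSWIM6 was set beside genes that share its name and domain type, and SMIM15 beside genes that share its name. Of 7 other ZSWIM genes ZSWIM7, which acts in homologous recombination, was higher at 0.59 [0.41, 0.76] and ZSWIM5 lower at -0.64 [-1.11, -0.19], with a median of 0.39. ZSWIM7 is at the 1.5-fold line, and no ZSWIM gene was higher under the 3 other scalings. Of 15 other assessed SMIM genes, grouped only for being small membrane proteins, 8 were higher and 1 lower with a median of 0.61. After the length and GC fit 5 were higher and 1 lower (median 0.32), and under the loess 3 were higher and 2 lower (median 0.287). With length and GC subtracted SMIM29 was at 0.793, SMIM26 at 0.046, SMIM20 at 0.427 and SMIM6 at 0.373, and SMIM15 at 0.112. Without a length correction SMIM29 was at 1.48 [1.17, 1.81], SMIM26 at 0.825, SMIM20, an assembly factor of cytochrome c oxidase, at 0.84 and SMIM6 at 0.96. SMIM15 at -0.09 thus lay below the middle of this group.

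**Figure D5:**
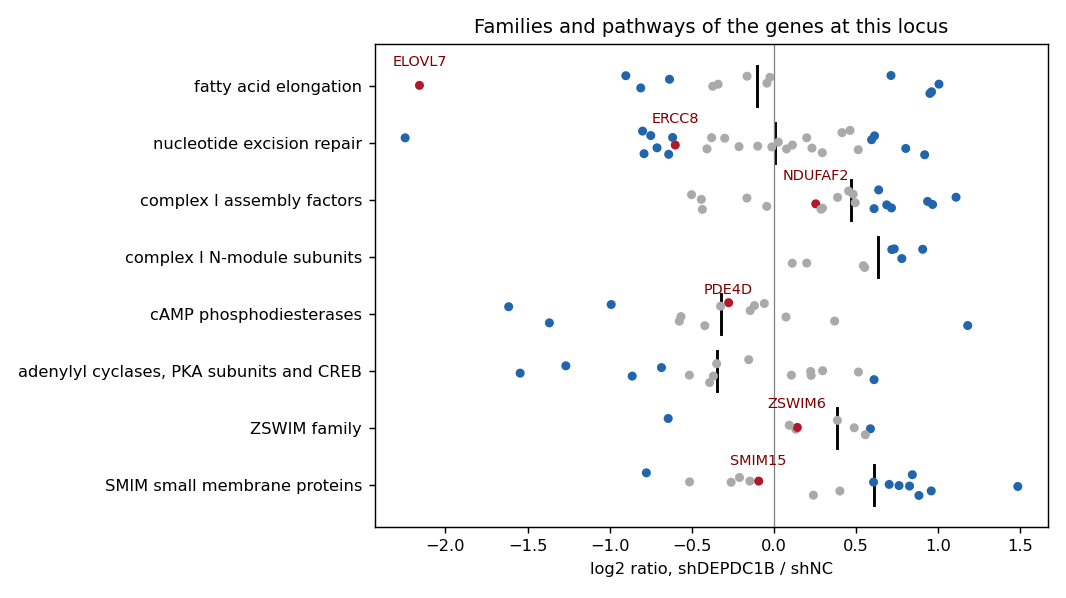
Log2 ratio (x axis) of each assessed gene in 8 family and pathway lists (y axis; vertical scatter within a list has no meaning), with genes of the DEPDC1B locus in red, other genes counted as higher or lower in blue and the rest in grey; black lines are list medians without the red genes. ELOVL7 lies far below its list, and NDUFAF2 and SMIM15 lie below the medians of 0.47 and 0.61.

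The genes most like DEPDC1B were sought as the 5 with the nearest log2 ratio among 11257 others whose larger count reached 100, a likeness over 2 libraries only. They were HTD2 with 127 and 15 counts, ZNF8-ERVK3-1 with 102 and 12, SLC7A11-AS1 with 156 and 18, ABCA1, a cholesterol exporter, with 1574 and 192, and BLOC1S5 with 122 and 15. Their log2 ratios ran from -3.04 (SLC7A11-AS1) to -2.94 (BLOC1S5), and none lies on chromosome 5. ZNF8-ERVK3-1 is a read-through gene and SLC7A11-AS1 an antisense gene, so their counts are uncertain.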

How the data were processed

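RNA sequencing of 2 libraries gave 1 table. Per the submitters' processing notes, the authors used Bowtie2 and RSEM on hg38, and the deposited values are estimated counts per gene symbol, not scaled for depth. For versions, annotation and strand setting: not given in the sources used here. RSEM shares reads that match several genes by a model, and the intervals do not cover that error.

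The estimated counts were rounded to whole numbers and scaled with TMM factors (edgeR 4.0.16, R 4.3.3). With 1 library per group no test was run. The ratio of scaled counts has an exact Clopper-Pearson 95% interval, and a ratio of ratios an exact conditional one (scipy 1.17.1). Reads carry no molecular identifiers. Ratios against 0 counts use a floor of 3 counts in that library. Coordinates and lengths are from GENCODE 29 (GRCh38), with 94.0% of assessed genes matched, and promoter sequences from RefSeq (GRCh38.p14). The steps were tested on simulated data. Alternatives were DESeq2 1.42.0 size factors, library totals, upper-quartile factors, unrounded counts, a prior count, 2 corrections for length, and other filters, thresholds and windows.

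The genes and lists were chosen with earlier results of these data known. Named are the 7 genes, the assessed genes within 2 Mb, up to 4 genes counted as higher or lower per list by the interval bound nearest to equality, and the 5 genes nearest to DEPDC1B in log2 ratio. The head-to-head pairs, the other elongases, DEPDC1, PART1, C5orf64 and the genes of the promoter arrangement in the closing section were chosen after their values were seen, and the marker genes come from a list. One further list of genes related to DEPDC1B is not reported here, though its genes are in the pooled counts of the closing section.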

Additional observations from a re-analysis of the deposited data

How the results depend on the processing

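DEPDC1B, ELOVL7 and ERCC8 were at least 1.5-fold lower under each of the scalings, roundings, prior counts, filters and length corrections tried, and ERCC8 was not at 2-fold. Of 49 recomputed log2 ratios of the 7 genes, 38 stayed within the counting interval of the reported one. PDE4D was at -0.372 with library totals (37.9 CPM per kb in shNC). With the length and GC fit subtracted ELOVL7 was at -1.806, NDUFAF2 at -0.317, SMIM15 at 0.112, ZSWIM6 at 0.4 and PDE4D at 0.285, and with a loess on length ERCC8 was at -0.912, NDUFAF2 at -0.330, SMIM15 at -0.201, ZSWIM6 at 0.457 and PDE4D at 0.299, so the signs of NDUFAF2 and PDE4D turned under both and that of SMIM15 under the fit. The cause was not tested. The chromosome 5 median went from -0.105 to -0.002 with the fit.

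With a 5 Mb window 10 genes were lower, or 8 lower and 1 higher with the fit, an alternative chosen after seeing the data. Over all lists pooled 124 genes were assessed, of which 25% were higher and 16.9% lower, beside 19.2% and 19.6% of all assessed genes. Their median of 0.075 was -0.022 with library totals. The 31 higher and 21 lower genes became 16 and 9 with the fit, where 12.3% of all genes in it were higher and 13.9% lower. With the loess they became 17 and 11, where 14.4% of all genes were higher and 13.6% lower. They became 24 and 27 with library totals and 4 and 6 at 2-fold. For these last settings no share over all genes is given, so the counts cannot be read against it. The elongation median turned to 0.107 and 0.041 under the fit and the loess, and that of the cyclase and protein kinase A list to 0.010 under the loess. With median coding lengths, levels per kb in shNC were 8.39 for DEPDC1B, 12.5 for ELOVL7, 18.0 for ERCC8, 41.4 for NDUFAF2, 50.4 for SMIM15 and 119 for PDE4D.

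No paired analysis was possible because each group has 1 library, and for the same reason no replicate was left out. At 39 counts in shDEPDC1B, DEPDC1B is the least precisely measured of the 7 genes.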

Other observations

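The arrangement at the DEPDC1B and DEPDC1 starts, a CCAAT followed on the gene's strand by TTCAAA with first bases 20 to 40 apart, was found in 59 of 35116 RefSeq promoter windows (0.168%), and the range of spacings was set after these 2 promoters had been seen. They belong to 58 genes, of which 20 were assessed. Several act in cell division: KIF14, a kinesin of cytokinesis, had 448 counts in shNC and 277 in shDEPDC1B (-0.61 [-0.835, -0.39]), ZWINT, a kinetochore protein, 556 and 710 (0.43 [0.27, 0.595]), CDKN3, a phosphatase of cyclin-dependent kinases, 332 and 525 (0.74 [0.54, 0.94]), and CKS2, a subunit of those kinases, 620 and 1380 (1.23 [1.096, 1.37]). Of the 20 genes 7 were lower, DEPDC1B included, and 5 higher, with a median log2 ratio of 0.06, where 19.6% of all assessed genes were lower and 19.2% higher. Without DEPDC1B and DEPDC1, whose promoters defined the arrangement, and the FAM72 copies, 6 of 15 were lower and 3 higher with a median of 0.135. None of the counts by promoter is corrected for length, and the share of lower genes went from 3.66% in the shortest group of coding genes to 52.3% in the longest. What part length has in them was not tested. DEPDC1B was the lowest of the 20. The other lower genes were SLC36A4 at -1.64, LPP at -1.55, TRPC1 at -1.315, ABLIM1 at -1.09, ZNF37A at -0.86 and KIF14. The 5 higher ones were CKS2, CDKN3, LINC00513 at 0.97, FAM72A and FAM72C. FAM72A, FAM72C and FAM72D, near-identical copies, are among the 20, and FAM72C had 0 and 116 counts while FAM72A had 124 and 184, so their counts are uncertain, and FAM72C reached the count filter only through 1 library. Of the 580 assessed genes with CCAAT and TTTGAA anywhere in the window, on either strand, 20.7% were lower and 19.0% higher, with a median of -0.035.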
